A study of Mus musculus with 33 samples.

Results

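The interferon regulatory factors are transcription factors that share a DNA-binding domain, and 5 of them, Irf4, Irf1, Irf7, Irf9 and Irf3, were among the 773 genes of the nCounter panel used here on mouse lung. They were taken by name from the normalized log2 counts of both deposited tables, and no other gene of the panel has a symbol that begins with Irf. The set was chosen by name and by measured values of these lungs: Irf4 was selected on its log2 rise at day 97 and set against the 4 factors of the interferon pathway. For that reason the Irf4 differences between treated and untreated lungs, and between repeat and single dosing, are given as a description without a test. The other 4 factors were tested in every comparison, and all 5 where the vectors, the sexes or the 3 h lungs were compared.

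Irf3 and Irf7 are activated by phosphorylation downstream of nucleic acid sensors and switch on the type I interferon genes. Irf9 is the DNA-binding subunit of ISGF3, the complex through which those interferons induce their target genes, and Irf1 is induced by interferon gamma and drives antigen-presentation genes. Irf4 is not an interferon effector of this kind. It is induced by antigen receptor signalling in lymphocytes and is needed for plasma cell differentiation, for effector T cells and for some dendritic cells.

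Total RNA was measured in 33 samples of right lung, called lungs from here on. All mice were CCSP-rtTAtg/(teto)7Sftpb/Sftpb-/-, generated in FVB/N. They lack their own surfactant protein B and make it from a transgene that doxycycline switches on in CCSP-expressing airway cells. At day 97 there were 6 groups of 4 lungs, 2 female and 2 male in each. The AAV-hSPBTLR9i repeat and AAV-hSPB repeat groups were dosed into the trachea at day 0 and day 90, and the AAV-hSPBTLR9i single and AAV-hSPB single groups at day 0 alone. These 4 groups lost doxycycline at day 7, so the repeat groups were harvested 7 days and the single groups 97 days after their last dose. The off-doxycycline group had no vector and lost doxycycline at day 94, and the on-doxycycline group had no vector and kept it. Both agents are adeno-associated virus vectors, and what the TLR9i in the longer name stands for is not given in the sources used here. In the 3 h experiment 3 groups of 3 lungs, 2 female and 1 male in each, were taken 3 h after AAV-hSPBTLR9i, AAV-hSPB or PBS. The ages of the mice are not given in the sources used here, and the labels do not state that each sample came from a separate mouse. The p-values therefore cover no more than the spread between lung samples.

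The recovered total count per lung ran from 597788 to 1131011 at day 97 and from 1156612 to 1710291 at 3 h, and the number of counts behind a value limits its precision. Irf4 had 37 to 928 counts in the day 97 lungs, against a background of 12.28 to 32.67 counts set by 8 dim control probes. Irf7 had 91 to 309 counts, Irf3 389 to 972, Irf9 630 to 1686 and Irf1 1092 to 3840. AAV-hSPB repeat replicate 2 stood apart from its group, with a Pearson r of 0.9442 to 0.9531 to the others over the panel. On-doxycycline replicate 1, at 0.9491 to 0.9621, held liver transcripts. The lowest r of any pair, 0.9325, involved off-doxycycline replicate 2, whose highest was 0.9768. The summed level of 3 liver genes ranged up to 47950 normalized counts on doxycycline, against at most 980 in every other day 97 group. Results that rest on the first 2 of these lungs are given with and without them. The single AAV-hSPB, off-doxycycline and on-doxycycline lungs carry sample numbers 1 to 12, and the other 3 day 97 groups carry numbers 13 to 24. Each group lies in a single block of numbers, and whether the blocks were run separately is not given in the sources used here.

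The promoters of the factors are shown for Irf4, whose level stood apart, and for Irf1, Irf7 and Irf9, the factors set against it that had the larger differences. Each runs from 250 bases before to 50 bases after an annotated start in RefSeq (build GRCm38.p6), 5′ to 3′ on the gene's own strand, with motif matches in capitals. For Irf1 and Irf9, which have more than 1 start in the table, the start that lies farthest upstream is shown.
Irf4 (chr13:30748983-30749282, plus strand): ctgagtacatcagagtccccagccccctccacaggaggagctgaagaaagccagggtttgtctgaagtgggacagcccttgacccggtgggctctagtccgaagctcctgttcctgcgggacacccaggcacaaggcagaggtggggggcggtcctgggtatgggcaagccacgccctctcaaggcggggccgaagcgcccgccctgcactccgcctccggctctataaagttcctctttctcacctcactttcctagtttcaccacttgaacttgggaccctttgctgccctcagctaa
Irf1 (chr11:53769764-53770063, plus strand): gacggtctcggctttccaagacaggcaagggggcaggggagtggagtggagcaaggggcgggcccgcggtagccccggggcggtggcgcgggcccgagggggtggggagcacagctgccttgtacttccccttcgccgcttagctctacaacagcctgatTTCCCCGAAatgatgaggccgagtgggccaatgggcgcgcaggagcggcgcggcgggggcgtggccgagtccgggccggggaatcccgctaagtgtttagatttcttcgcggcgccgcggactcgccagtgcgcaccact
Irf7 (chr7:141266375-141266674, minus strand): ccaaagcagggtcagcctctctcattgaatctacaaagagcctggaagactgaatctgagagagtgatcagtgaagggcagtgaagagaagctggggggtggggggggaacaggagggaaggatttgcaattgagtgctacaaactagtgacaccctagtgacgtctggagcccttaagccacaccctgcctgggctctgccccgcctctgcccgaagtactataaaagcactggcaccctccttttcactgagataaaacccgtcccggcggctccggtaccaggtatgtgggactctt
Irf9 (chr14:55603735-55604034, plus strand): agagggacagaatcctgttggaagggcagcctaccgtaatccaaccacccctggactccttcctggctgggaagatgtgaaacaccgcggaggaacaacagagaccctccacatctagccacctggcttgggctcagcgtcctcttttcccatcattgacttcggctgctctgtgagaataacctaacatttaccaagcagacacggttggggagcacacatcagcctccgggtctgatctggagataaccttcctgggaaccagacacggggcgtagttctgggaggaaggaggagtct
In these windows 4 motifs were searched on both strands. The interferon-stimulated response element core, GAAANNGAAA, occurs in 3.44% of the 32851 mouse promoters of this length, and the gamma-activated site, TTCNNNGAA, in 8.3%. A single form of the NF-kappaB site, GGGNNTTTCC, occurs in 1.63%, and the ETS-IRF composite element, GGAANNGAAA, in 2.72%. Other forms of the NF-kappaB site were not searched, so an unmarked window can still hold them. The ETS-IRF element and the response element core differ only in their second letter, and a gamma-activated site can overlap either by the letters GAA. The single match in the 7 promoters listed for the 5 factors was a gamma-activated site 90 bases before the upstream start of Irf1. The absence of a match says only that these letters are not in these windows.

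Irf4 was highest in lungs that had received a further dose of either vector. Its normalized log2 count was 8.37, 8.53, 8.63 and 8.77 in the AAV-hSPBTLR9i repeat lungs, and 8.43, 7.67, 7.98 and 9.72 in the AAV-hSPB repeat lungs. After single doses it was 6.49, 7.19, 6.58 and 6.89 with AAV-hSPBTLR9i, and 7.14, 6.89, 7.05 and 6.85 with AAV-hSPB. Off doxycycline it was 5.36, 5.90, 5.99 and 6.46, and on doxycycline 6.10, 5.92, 6.44 and 5.69. The lungs thus fell into 3 bands without overlap, with all repeat lungs above all single-dose lungs and all of those above all lungs without vector. The lower step was narrow, since the lowest single-dose lung, at 6.49, lay just above the highest off-doxycycline lung, at 6.46. In bulk lung RNA, more cells that express a gene and more RNA per cell cannot be told apart.

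By group mean, Irf4 ranked as AAV-hSPBTLR9i repeat at 8.57 ± 0.17, AAV-hSPB repeat at 8.45 ± 0.90, AAV-hSPB single at 6.98 ± 0.13, AAV-hSPBTLR9i single at 6.79 ± 0.32, on-doxycycline at 6.04 ± 0.32 and off-doxycycline at 5.93 ± 0.45 (log2, SD, n = 4 each). Neighbours within a band overlapped. The AAV-hSPB repeat group held both ends of the repeat band, replicate 2 at 7.67 and replicate 4 at 9.72, which had 928 Irf4 counts. Expressed as a difference in log2 level, the AAV-hSPBTLR9i repeat group stood 2.54 ± 0.31 above on-doxycycline (SE from limma), a 5.8-fold difference. The AAV-hSPB repeat group stood 2.41 ± 0.31 above it, a 5.32-fold difference, and 1.99 without its replicate 4. In both comparisons Irf4 stood at rank 5 of 773 by size of rise. Against off-doxycycline the differences were 2.65 and 2.52 for the same 2 repeat groups, at rank 3 in each.

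**Figure D1:**
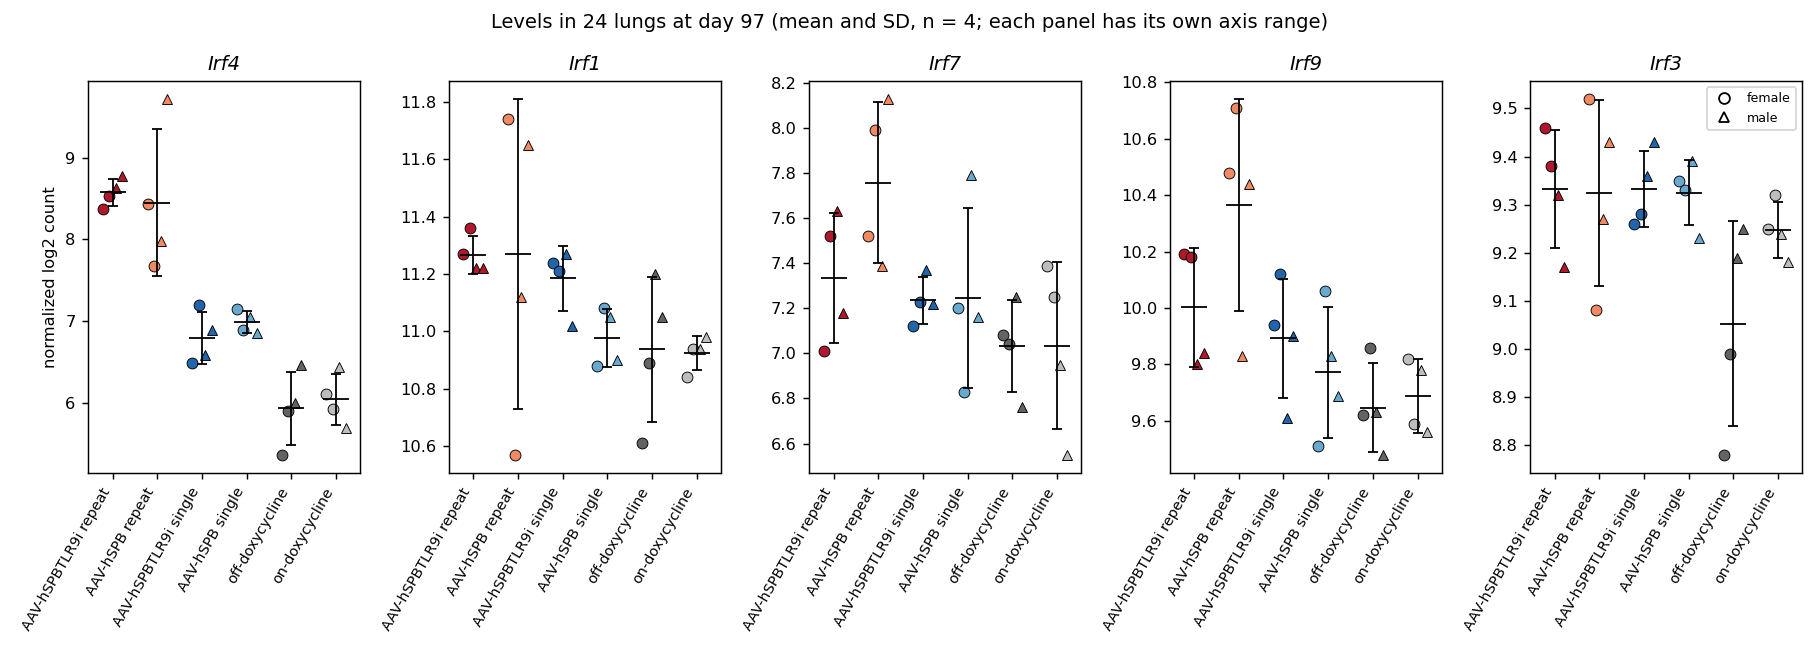
Normalized log2 count (y axis, a separate range in each panel) of the 5 factors in the 24 day 97 lungs by group (x axis), with circles for females, triangles for males, and bars for the mean and SD of 4 lungs. The Irf4 panel shows the 3 separate bands, with repeat lungs from 7.67 to 9.72, single-dose lungs from 6.49 to 7.19 and lungs without vector from 5.36 to 6.46, while the groups overlap widely for Irf3.

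Repeat lungs also stood well above single-dose lungs. They were harvested 7 days after their last dose and the single-dose lungs 97 days after it. A second dose and a recent dose therefore cannot be told apart in any comparison of repeat with single dosing. Repeat minus single dosing gave a log2 difference for Irf4 of 1.78 ± 0.31 with AAV-hSPBTLR9i, 3.44-fold and rank 4 of 773, and 1.47 ± 0.31 with AAV-hSPB, 2.76-fold and rank 11. In lungs given a single dose 97 days earlier, Irf4 was 0.75 ± 0.31 above on-doxycycline with AAV-hSPBTLR9i. With AAV-hSPB it was 0.94 ± 0.31 above, and the ranks were 27 and 10. The difference of AAV-hSPBTLR9i repeat from single and that of AAV-hSPB single from on-doxycycline each lie within a single block of sample numbers. Removing doxycycline for the last days, with no vector, gave an Irf4 difference of -0.11 ± 0.31, and the off- and on-doxycycline lungs overlapped. That group lost doxycycline at day 94, while all vector groups lost it at day 7. No group without vector lost it that early, so vector and longer loss of doxycycline cannot be told apart.

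Irf7 and Irf9 rose after repeat dosing with AAV-hSPB, by far less than Irf4. Irf7 was 7.52, 7.99, 7.39 and 8.13 in AAV-hSPB repeat lungs, against 7.39, 7.25, 6.95 and 6.55 on doxycycline. The lowest repeat lung equalled the highest on-doxycycline lung to 2 decimals, and the log2 difference was 0.72 ± 0.21 (adjusted p = 0.0164, limma with Benjamini-Hochberg adjustment over 773 genes). That call was lost when scaled to the median panel gene (0.49, adjusted p = 0.0718), in the fit of the compared groups alone (adjusted p = 0.0851), without AAV-hSPB repeat replicate 4 (0.60, adjusted p = 0.0638) and without on-doxycycline replicate 4 (0.56, adjusted p = 0.0773). Irf9 was 10.48, 10.71, 9.83 and 10.44 in AAV-hSPB repeat lungs, against 9.82, 9.59, 9.78 and 9.56 on doxycycline, with no overlap. Its difference was 0.68 ± 0.16 (adjusted p = 0.00475), and it missed the threshold in the fit of the compared groups alone (adjusted p = 0.0621). Against off-doxycycline the same pair rose, Irf9 by 0.72 ± 0.16 (adjusted p = 0.00292) and Irf7 by 0.72 ± 0.21 (adjusted p = 0.015). In the fit of the compared groups alone both had an adjusted p of 0.0691, and Irf7 also missed the threshold when scaled to the median panel gene (0.53, adjusted p = 0.0573) and without AAV-hSPB repeat replicate 4 (0.60, adjusted p = 0.0598). Against AAV-hSPB single dosing Irf9 alone passed, at 0.59 ± 0.16 (adjusted p = 0.0317), and Irf7 was at 0.51 ± 0.21 (adjusted p = 0.146). The Irf9 call was lost scaled to all 12 reference genes (0.48, adjusted p = 0.0844), in the series matrix values (adjusted p = 0.0813), in the compared groups alone (adjusted p = 0.2), and without AAV-hSPB repeat replicate 1, 2 or 4 or AAV-hSPB single replicate 1, 3 or 4, at adjusted p-values from 0.0566 to 0.109.

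Irf1 and Irf3 did not pass in these comparisons. Irf1 was 11.74, 10.57, 11.12 and 11.65 in AAV-hSPB repeat lungs, against 10.84, 10.94, 10.94 and 10.98 on doxycycline, a log2 difference of 0.34 ± 0.18 (adjusted p = 0.159). AAV-hSPB repeat replicate 2 was the lowest of all day 97 lungs for Irf1, and without it the difference was 0.58 with an adjusted p of 0.00401. Without that lung Irf1 also passed against off-doxycycline (0.56, adjusted p = 0.00411) and against AAV-hSPB single dosing (0.53, adjusted p = 0.0271). Leaving out replicate 1 instead moved Irf1 the other way, to 0.19 against on-doxycycline (adjusted p = 0.45), 0.17 against off-doxycycline and 0.13 against single dosing, and leaving out replicate 4 gave 0.22, 0.20 and 0.16. Irf3 ranged from 9.08 to 9.52 in AAV-hSPB repeat lungs, against 9.18 to 9.32 on doxycycline, and its difference of 0.08 ± 0.11 (adjusted p = 0.618) turned to -0.15 when lungs were scaled to the median panel gene. Against off-doxycycline Irf3 differed by 0.27 ± 0.11 (adjusted p = 0.0616), and passed without AAV-hSPB repeat replicate 2 (0.36, adjusted p = 0.0132), off-doxycycline replicate 3 (0.32, adjusted p = 0.0464) or replicate 4 (0.34, adjusted p = 0.0239) and without the lowest 25% of genes (adjusted p = 0.0487). Of the 4 tested factors 2 were therefore called against on-doxycycline, where 26.3% of the panel was called, 180 genes higher and 23 lower. Against off-doxycycline 2 of 4 were called, where 27% of the panel was, and against single dosing 1 of 4, where 7.24% was. The panel split depended on scaling. Scaled to the median panel gene, the first of these comparisons had 98 genes higher and 119 lower, and scaled to all 12 reference genes it had 114 higher and 73 lower. The scaling to the median panel gene moved the median of all genes by -0.22 there. Against off-doxycycline the deposited scaling gave 174 higher and 35 lower, the median panel gene 102 and 82, and all 12 reference genes 121 and 70. Against single dosing they gave 52 and 4, 41 and 5, and 27 and 21.

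After repeat dosing with AAV-hSPBTLR9i none of the 4 tested factors was called, although Irf4 lay as high as with AAV-hSPB. Irf1 was 11.27, 11.36, 11.22 and 11.22 in AAV-hSPBTLR9i repeat lungs, all above the on-doxycycline lungs at 10.84 to 10.98, and its log2 difference was 0.34 ± 0.18 (adjusted p = 0.242). In the fit of these 2 groups alone Irf1 had an adjusted p of 0.0196. Irf9 was 10.19, 10.18, 9.80 and 9.84, against 9.56 to 9.82 on doxycycline, a difference of 0.32 ± 0.16 (adjusted p = 0.24). Irf7 was 7.01, 7.52, 7.63 and 7.18, a difference of 0.30 ± 0.21 (adjusted p = 0.406) that was 0.14 without on-doxycycline replicate 4 and 0.10 when scaled to the median panel gene. Irf3 ranged from 9.17 to 9.46, a difference of 0.09 ± 0.11 (adjusted p = 0.685) that turned to -0.12 when scaled to the median panel gene. None of the 4 had an unadjusted p under 0.05 in limma, and voom on the recovered counts also called 0. Of the panel, 11.5% was called, 85 genes higher and 4 lower, or 53 higher and 37 lower when scaled to the median panel gene and 61 and 18 when scaled to all 12 reference genes. Against off-doxycycline 0 of 4 factors were called by limma or voom, with 2 at an unadjusted p under 0.05 (Irf3 and Irf9), and 17.7% of the panel was called, 112 higher and 25 lower, or 53 and 45 when scaled to the median panel gene and 66 and 31 when scaled to all 12 reference genes. Without off-doxycycline replicate 4 Irf3 passed there (0.34, adjusted p = 0.0331). Against AAV-hSPBTLR9i single dosing 0 of 4 were called by either tool, none had an unadjusted p under 0.05, and their differences ran from 0.00 to 0.11, where 0.388% of the panel was called.

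**Figure D2:**
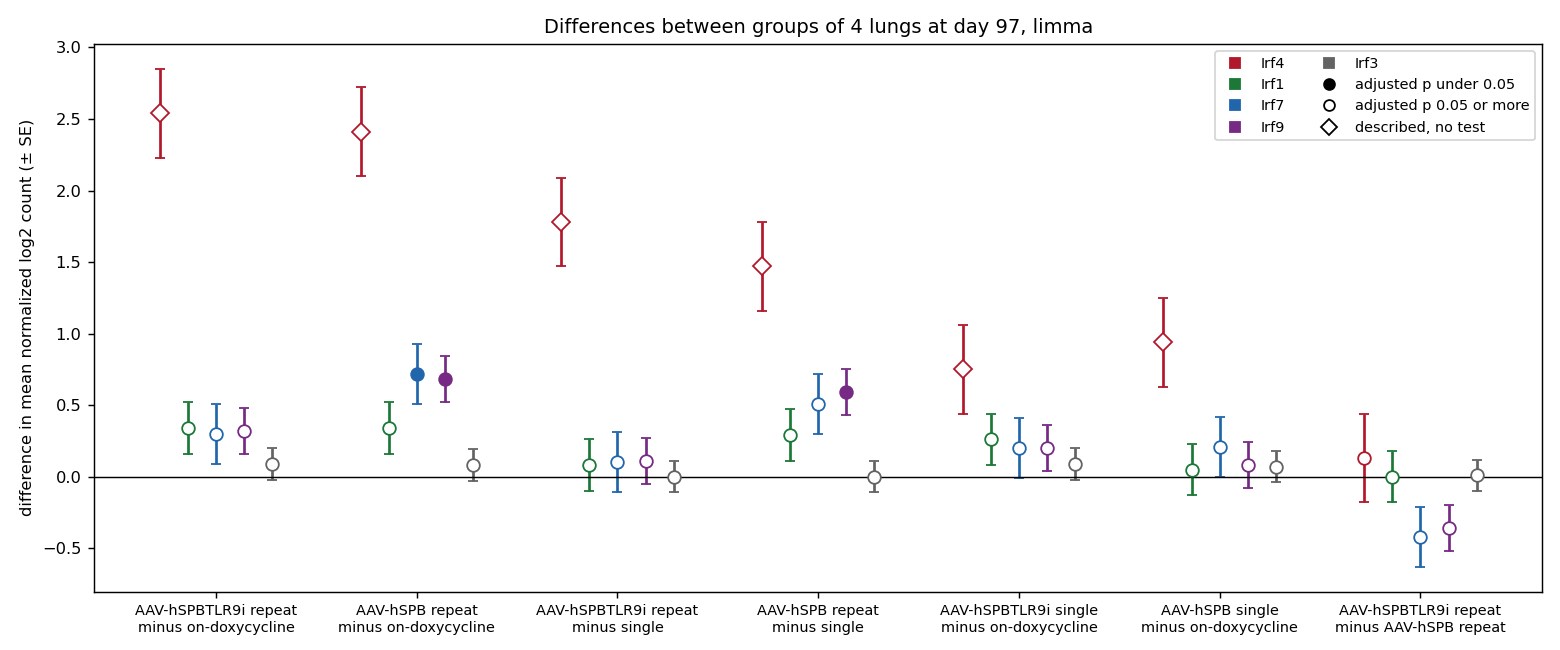
Difference in mean normalized log2 count between groups of 4 day 97 lungs (y axis, with SE from limma) for the 5 factors in 7 comparisons (x axis). Filled circles passed an adjusted p of 0.05, open circles did not, and diamonds are the Irf4 differences given without a test. Irf4 lies at 2.54 and 2.41 for repeat dosing against on-doxycycline, where the highest other factor, Irf7 with AAV-hSPB, lies at 0.72.

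The distance between Irf4 and the other factors was present in every repeat lung. Irf4's log2 difference from the on-doxycycline mean, less the mean difference of the other 4 factors, was 2.07, 2.10, 2.32 and 2.60 in AAV-hSPBTLR9i repeat lungs and 1.80, 1.26, 1.76 and 2.99 in AAV-hSPB repeat lungs. It was 0.29 to 0.92 after single AAV-hSPBTLR9i dosing and 0.72 to 1.09 after single AAV-hSPB dosing. Off-doxycycline lungs ran from -0.48 to 0.51, and on-doxycycline lungs from -0.20 to 0.40. The mean difference of the other 4 factors never passed 0.69 in any lung, that of AAV-hSPB repeat replicate 4, where Irf4 was 3.68 above. Since Irf4 was chosen for its rise, this gap is a description of the lungs and carries no test.

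**Figure D3:**
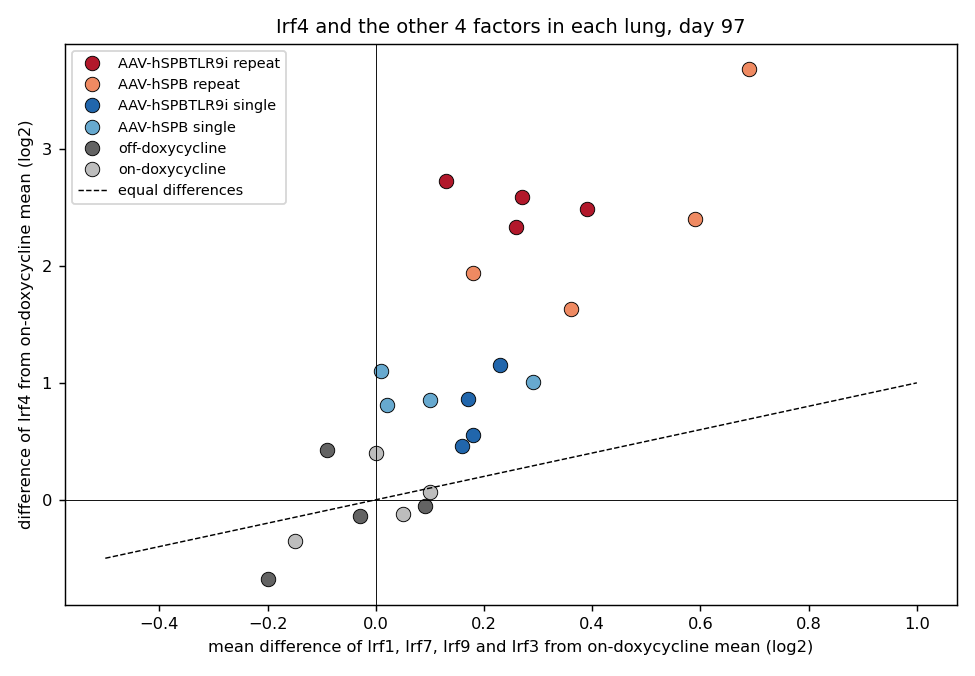
Each point is 1 of the 24 day 97 lungs, with the mean log2 difference of Irf1, Irf7, Irf9 and Irf3 from the on-doxycycline mean on the x axis and that of Irf4 on the y axis. The dashed line marks equal differences, and the repeat lungs lie 1.26 to 2.99 above it.

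After single doses the other factors stayed close to the lungs without vector. With AAV-hSPBTLR9i their log2 differences from on-doxycycline ran from 0.09 to 0.26, and 0 of 4 were called, where 0.259% of the panel was called. With AAV-hSPB they ran from 0.05 to 0.21, and 0 of 4 were called, where 0% of the panel was called by limma, 82 genes had an unadjusted p under 0.05 and voom called 3. In both, no factor had an unadjusted p under 0.05 and voom called none of the 4. Of the 4 factors, only Irf1 had single-dose lungs that separated from on-doxycycline. With AAV-hSPBTLR9i it was 11.24, 11.21, 11.27 and 11.02, against 10.84 to 10.98 on doxycycline, a difference of 0.26 ± 0.18 (adjusted p = 0.649, limma). Against off-doxycycline Irf3 differed by 0.28 ± 0.11 with AAV-hSPBTLR9i (adjusted p = 0.212) and by 0.27 ± 0.11 with AAV-hSPB (adjusted p = 0.207). It was the single factor with an unadjusted p under 0.05 in either comparison, voom called none of the 4, and 0% of the panel was called by limma in both, with 142 and 127 genes at an unadjusted p under 0.05. The off-doxycycline lungs were low for Irf3, at 8.78, 8.99, 9.19 and 9.25. All AAV-hSPBTLR9i single lungs, at 9.26 to 9.43, lay above them, by a narrow step. Off- against on-doxycycline itself called 0 of 4 factors by limma and by voom and 0% of the panel, with none of the 4 and 96 panel genes at an unadjusted p under 0.05.

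The comparison of the vectors asked whether any factor differed between AAV-hSPBTLR9i and AAV-hSPB. After repeat dosing the AAV-hSPBTLR9i minus AAV-hSPB log2 difference of Irf4 was 0.13 ± 0.31, with a 95% interval from -0.52 to 0.78 (adjusted p = 0.967), and the lungs overlapped. Without AAV-hSPB repeat replicate 2 it was -0.13, and without replicate 4 it was 0.55. Irf7 was 0.42 lower with AAV-hSPBTLR9i, at a difference of -0.42 ± 0.21 with an interval from -0.86 to 0.02 (adjusted p = 0.744). Irf9 had a difference of -0.36 ± 0.16 with an interval from -0.71 to -0.02 (unadjusted p = 0.0392, adjusted p = 0.723). Irf1 and Irf3 differed by 0.00 and 0.01, with intervals from -0.38 to 0.37 and from -0.21 to 0.23. Limma and voom called 0 of 5 factors, with Irf9 the only one at an unadjusted p under 0.05. They also called 0% of the panel, where 51 genes had an unadjusted p under 0.05 in limma.

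After single dosing the vector difference of Irf4 was -0.19 ± 0.31, with an interval from -0.84 to 0.46 (adjusted p = 1). Those of the other 4 factors ran from -0.01 to 0.21, 0 of 5 were called by limma or voom, none had an unadjusted p under 0.05, and 0% of the panel was called, with 8 genes at an unadjusted p under 0.05. The rise of Irf7 and Irf9 with AAV-hSPB and not with AAV-hSPBTLR9i was not shown to differ between the vectors. In the interaction of dose and vector, the AAV-hSPBTLR9i repeat-minus-single step less the AAV-hSPB step was -0.48 ± 0.23 for Irf9 (unadjusted p = 0.0508, adjusted p = 0.995) and -0.41 ± 0.30 for Irf7 (adjusted p = 0.995). For Irf4 it was 0.32 ± 0.44, with an interval from -0.60 to 1.24 (adjusted p = 0.995). Limma and voom called 0 of 5 factors and 0% of the panel, with 0 factors and 24 panel genes at an unadjusted p under 0.05 in limma.

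Between the sexes, with group held in the fit, Irf9 was 0.22 ± 0.08 higher in the 12 females than in the 12 males (unadjusted p = 0.0141, adjusted p = 0.129) and Irf4 differed by -0.25 ± 0.18 (adjusted p = 0.395). In the AAV-hSPBTLR9i repeat group the Irf9 levels were 10.19 and 10.18 in females and 9.80 and 9.84 in males. Of 5 factors limma called 0, with Irf9 the only one at an unadjusted p under 0.05, and 2.72% of the panel was called, 20 genes higher in females and 1 lower, or 9 and 6 when scaled to the median panel gene. This comparison was not run with voom.

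At 3 h no factor separated the vectors from PBS by the test. Irf4 was 6.42, 6.08 and 6.53 after AAV-hSPBTLR9i, 6.12, 5.96 and 6.18 after AAV-hSPB, and 5.79, 6.63 and 6.63 after PBS, and all 3 groups overlapped. Its log2 difference from PBS was -0.01 ± 0.24 with AAV-hSPBTLR9i (95% interval from -0.55 to 0.54, adjusted p = 1) and -0.26 ± 0.24 with AAV-hSPB (interval from -0.80 to 0.28, adjusted p = 0.996). Irf1, the factor with the highest AAV-hSPB difference, was 12.08, 11.73 and 11.56 after AAV-hSPBTLR9i, 11.82, 12.11 and 11.95 after AAV-hSPB, and 11.65, 11.67 and 11.78 after PBS. All AAV-hSPB lungs lay above all PBS lungs for Irf1, by 0.26 ± 0.15 on average (interval from -0.08 to 0.60, adjusted p = 0.996). That was rank 76 of 773 by size of rise, and the share of panel genes that separated likewise was not counted.

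The type I interferon factors were spread as widely within the 3 h groups as between them. Irf7 was 8.56, 7.61 and 7.38 after AAV-hSPBTLR9i, 7.89, 8.26 and 7.39 after AAV-hSPB, and 8.51, 7.57 and 7.52 after PBS. Irf9 had a range of 10.20–11.07 in AAV-hSPBTLR9i lungs, 10.53–10.98 in AAV-hSPB lungs and 10.38–11.04 in PBS lungs. For Irf3 the ranges were 9.79–9.92, 9.66–10.04 and 9.67–9.97 in the same 3 groups. PBS replicate 1 was the highest PBS lung for Irf7, Irf9 and Irf3 and the lowest for Irf4. AAV-hSPBTLR9i against AAV-hSPB gave differences from -0.19 to 0.26, with Irf4 at 0.26 ± 0.24 (interval from -0.29 to 0.80, adjusted p = 1). In each of the 3 comparisons limma and voom called 0 of 5 factors and 0% of the panel, no factor had an unadjusted p under 0.05, and 12 to 17 panel genes did. With 3 lungs a group the intervals for Irf7 ran from -0.91 to 0.88 against PBS with either vector, so a change of that size was not detectable at this precision.

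**Figure D4:**
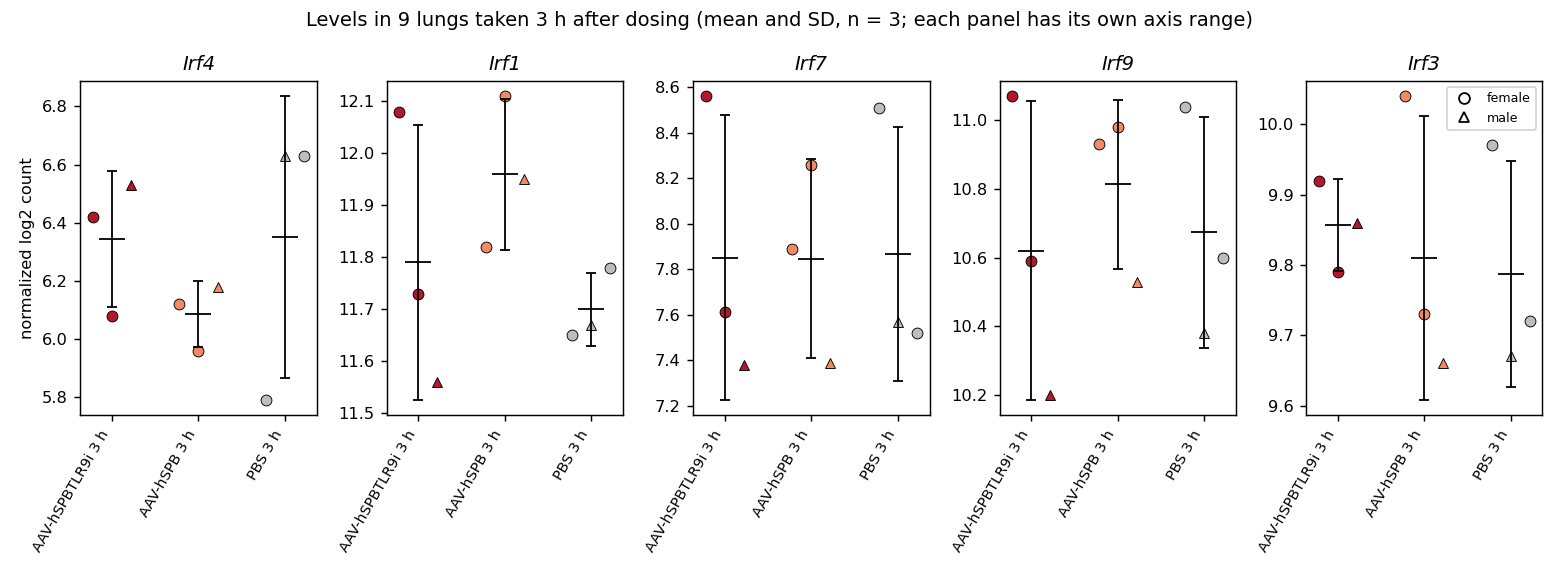
Normalized log2 count (y axis, a separate range in each panel) of the 5 factors in the 9 lungs taken at 3 h by group (x axis), with circles for females, triangles for males, and bars for the mean and SD of 3 lungs. The groups overlap for all factors except Irf1, where AAV-hSPB lungs at 11.82 to 12.11 lie above PBS lungs at 11.65 to 11.78.

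The genes whose day 97 levels were most like those of Irf4 were lymphocyte genes, followed by an endoplasmic reticulum chaperone. Over the 24 lungs the 6 highest Pearson correlations were with Lax1, an adaptor of lymphocyte antigen receptors (r = 0.947), Cxcr3, the receptor of Cxcl9 and Cxcl10 (0.919), Cd28, a T cell costimulatory receptor (0.901), Tnfrsf17, the BCMA receptor of plasma cells (0.891), Tigit, an inhibitory receptor of T and NK cells (0.890), and Hsp90b1, the chaperone GRP94 (0.879). These correlations describe lungs that share their groups. Within groups, as residuals from the group means, they were 0.705, 0.652, 0.389, 0.583, 0.490 and 0.423 in that order. Lax1 averaged 8.77 ± 0.24 in AAV-hSPBTLR9i repeat lungs and 8.42 ± 1.09 in AAV-hSPB repeat lungs, against 6.48 ± 0.43 on doxycycline (log2, SD, n = 4 each). Tnfrsf17 was above background in all 4 AAV-hSPBTLR9i repeat lungs, at 36 to 56 counts, and in 3 of 4 AAV-hSPB repeat lungs, at 14 to 60 counts. It was not above background in any off-doxycycline lung, at 6 to 13 counts, or on-doxycycline lung, at 4 to 14, so its levels there are bounds and its r rests partly on them.

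**Figure D5:**
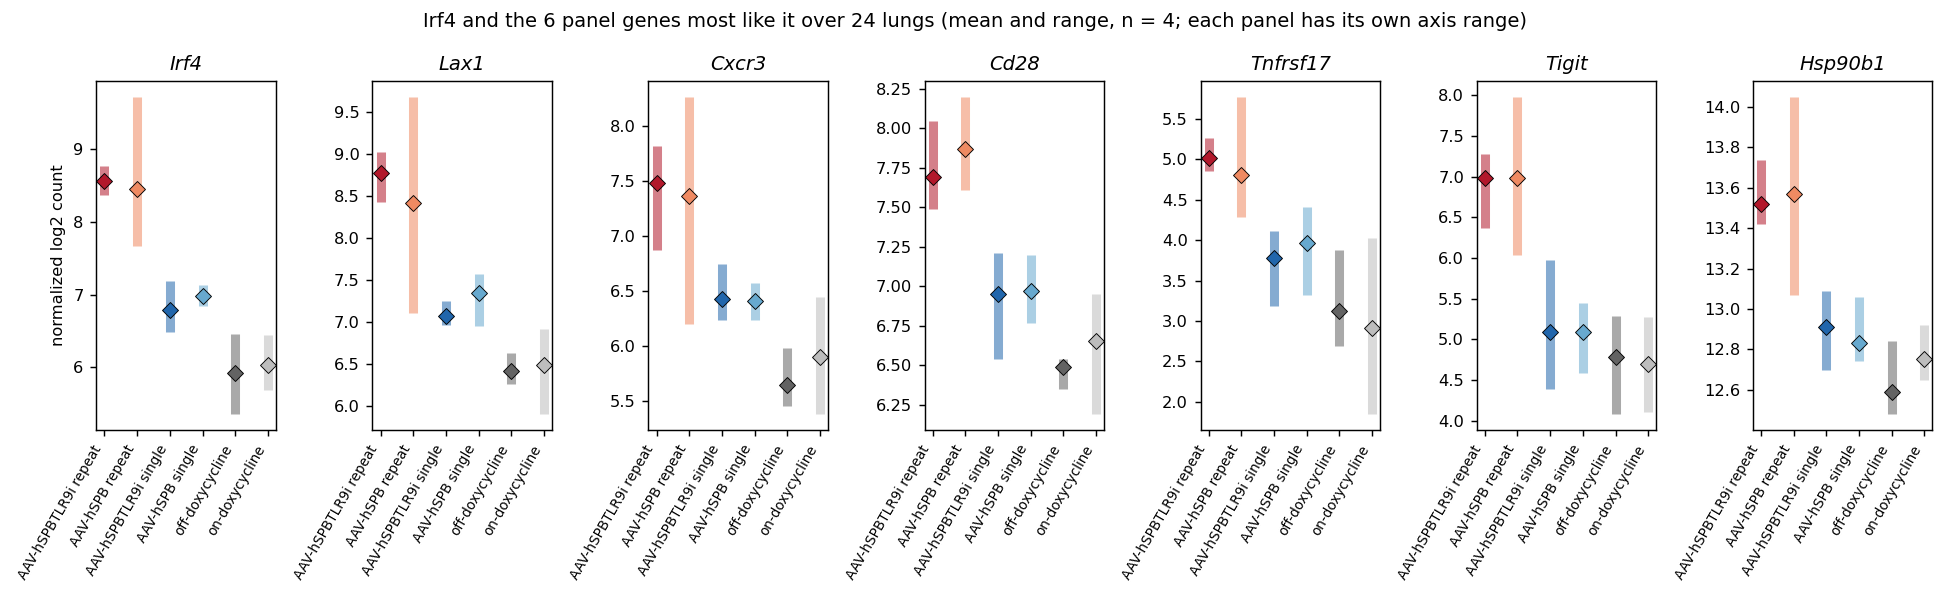
Normalized log2 count (y axis, a separate range in each panel) of Irf4 and of the 6 panel genes with the highest Pearson r to it over the 24 day 97 lungs, by group (x axis), with diamonds for the mean and bars for the range of 4 lungs. In all 7 panels both repeat groups have the highest means, and the AAV-hSPB repeat group has a wide range, 7.67 to 9.72 for Irf4 and 7.10 to 9.68 for Lax1.

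None of the other factors had these genes among its closest 3. The levels of Irf9 were most like those of H2-D1, a classical MHC class I gene (r = 0.907), Nlrc5, the transactivator of MHC class I genes (0.899), and Tap2, a subunit of the peptide transporter (0.890). Irf7 was most like Ifi44 and Isg15, both interferon-induced genes (0.795 and 0.793), and Ccr2, a monocyte chemokine receptor (0.778). Irf1 was most like Traf2, an adaptor of TNF receptors (0.795), Ltb, which encodes lymphotoxin beta (0.781), and Casp1, the inflammatory caspase (0.780). Irf3 was most like Tnfsf10, which encodes TRAIL (0.891), Adgre5, an adhesion receptor of leukocytes (0.863), and Plcg1, a phospholipase (0.853). Among the factors themselves, Irf4 had r = 0.645 with Irf1, 0.632 with Irf9, 0.594 with Irf7 and 0.544 with Irf3 over the lungs. Within groups these were 0.606, 0.044, 0.225 and 0.524 in that order. Irf1 and Irf3 had 0.700 over the lungs and 0.744 within groups. The other pairs without Irf4 ran from -0.069 to 0.174 within groups.

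Genes around the factors, in lists chosen with earlier results of these lungs known, were counted by role in the repeat groups against on-doxycycline. Over the whole panel 11% of genes were called higher with AAV-hSPBTLR9i and 23.3% with AAV-hSPB, and the list counts are to be read against these shares. Of 16 measured targets of interferon gamma and Irf1, 13 rose with AAV-hSPBTLR9i (81.2%) and 16 with AAV-hSPB (100%), with median log2 differences of 1.09 and 1.54, against 0.11 and 0.15 over the panel. Among them Psmb9, an immunoproteasome subunit, rose by 1.09 ± 0.16 (adjusted p = 0.000336, limma) and 1.44 ± 0.16 (adjusted p = 5.45e-06), and Tap1, the other subunit of the peptide transporter, by 1.19 ± 0.19 and 1.64 ± 0.19. Of the 30 measured interferon-stimulated genes, 4 were higher after AAV-hSPBTLR9i, and 12 were higher and 1 lower (Ifitm1) after AAV-hSPB, at medians of 0.21 and 0.35. The shares higher were 13.3%, near the panel's 11%, and 40%. Zbp1, a nucleic acid sensor, rose by 1.82 ± 0.27 (adjusted p = 0.000336) and 2.39 ± 0.27 (adjusted p = 5.45e-06), and Cxcl10, a Cxcr3 ligand that stands in both lists, by 2.59 ± 0.44 and 3.00 ± 0.44. Cxcl10 was above background in 3 of 4 on-doxycycline lungs, Cxcl11 in 1 and Ido1 in 0. Oas3, among the interferon-stimulated genes called with AAV-hSPB, was above background in 0 of 4 lungs of both groups. It had 7 to 17 counts in AAV-hSPB repeat lungs and 1 to 7 on doxycycline. The list counts therefore include genes near the floor. The AAV-hSPB count of interferon-stimulated genes was 5 in the fit of the compared groups alone, and the AAV-hSPBTLR9i count was 2 without AAV-hSPBTLR9i repeat replicate 2, when scaled to the median panel gene, in the series matrix values or without the lowest 25% of genes. For the 16 interferon gamma and Irf1 targets, medians against on-doxycycline were 0.65 and 0.46 after single AAV-hSPBTLR9i and AAV-hSPB. Off doxycycline without vector the median was 0.32. Repeat against single dosing called 0 of 16 higher with AAV-hSPBTLR9i, where 0.388% of the panel was called. With AAV-hSPB it called 12 of 16, where 7.24% was. Against off-doxycycline 10 and 14 of 16 rose in the AAV-hSPBTLR9i and AAV-hSPB repeat groups.

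Of 15 measured interferon, receptor and ISGF3 signalling genes, 3 rose with AAV-hSPBTLR9i (20%, against 11% of the panel) and 5 with AAV-hSPB (33.3%, against 23.3%), and without the lungs that stand apart 5 and 6 did. In the compared groups alone the counts were 5 and 3. Stat2, a subunit of ISGF3, rose by 0.42 ± 0.12 with AAV-hSPBTLR9i (adjusted p = 0.0203, limma) and by 0.66 ± 0.12 with AAV-hSPB (adjusted p = 0.000376). The sensors, adaptors and kinases upstream of Irf3 and Irf7 had 1 of 20 called higher with AAV-hSPBTLR9i (Chuk, 0.29 ± 0.09) and 5 of 20 with AAV-hSPB, among them Tlr9 at 0.94 ± 0.28 (adjusted p = 0.0195). Those shares, 5% and 25%, were below and near the panel's 11% and 23.3%, and the list medians of 0.08 and 0.11 lay below the panel medians of 0.11 and 0.15. Scaled to the median panel gene, 0 of these 20 were called higher with either vector, 1 was called lower with AAV-hSPBTLR9i and 3 with AAV-hSPB, and the AAV-hSPB count was 0 in the compared groups alone, 2 without the lungs that stand apart, 3 without on-doxycycline replicate 1 and 2 when AAV-hSPB repeat replicate 1 or 4 or on-doxycycline replicate 2 or 4 was left out. Against off-doxycycline, in the deposited scaling, 0 of the 20 were called higher with either vector and 1 lower with AAV-hSPB.

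Genes of plasma, B and T cells, which are known to use Irf4, were counted next. Of 11 measured plasma and B cell genes, 8 rose with AAV-hSPBTLR9i (72.7%, against 11% of the panel) and 7 with AAV-hSPB (63.6%, against 23.3%), at medians of 1.23 and 1.13, and without the lungs that stand apart 9 and 10 did. The AAV-hSPB count was 4 in the compared groups alone. Xbp1, a transcription factor of the secretory programme, rose by 0.74 ± 0.16 (adjusted p = 0.00376, limma) and 0.77 ± 0.16 (adjusted p = 0.00134). On-doxycycline lungs already had 1623 to 1911 Xbp1 counts, where Tnfrsf17 was above background in 0 of 4. Tnfrsf17 was above it in 4 of 4 AAV-hSPBTLR9i repeat lungs and 3 of 4 AAV-hSPB repeat lungs. Which cells gave the rise of Xbp1 was not tested. Cd79a, a B cell receptor subunit, rose by 1.27 ± 0.30 and 1.46 ± 0.30. Of 24 measured genes of activated T cells, 6 rose with AAV-hSPBTLR9i (25%, against 11% of the panel) and 13 with AAV-hSPB (54.2%, against 23.3%), at medians of 0.66 and 0.86. The AAV-hSPB count was 8 when scaled to the median panel gene, in the compared groups alone, and without on-doxycycline replicate 2 or 4. Without the lowest 25% of genes, which tests fewer, the counts were 2 and 4. Tigit rose by 2.28 ± 0.40 (adjusted p = 0.000648) and 2.29 ± 0.40 (adjusted p = 0.000317), and was above background in 3 of 4 on-doxycycline lungs. Of the other genes called with AAV-hSPB, Il10 was above background in 0 of those 4 lungs and Cd8a in 1. Tnfrsf4, Ctla4, Foxp3 and Pdcd1 were above it in 2 each. Repeat against single dosing called 0 of the 11 plasma and B cell genes higher with AAV-hSPBTLR9i and 1 with AAV-hSPB. Of the 24 T cell genes it called 1 and 4. Single doses of AAV-hSPBTLR9i and AAV-hSPB called 0 in both lists against on-doxycycline. The medians there were 0.71 and 0.83 for plasma and B cell genes, and 0.25 and 0.26 for T cell genes. Of 10 measured genes of dendritic cells and macrophages, 2 (20%) and 3 (30%) rose with AAV-hSPBTLR9i and AAV-hSPB, the second share near the panel's 23.3%, among them Cd86, a costimulatory ligand, by 0.67 ± 0.22 (adjusted p = 0.0498) and 0.85 ± 0.22 (adjusted p = 0.00627). These counts were 1 and 2 without the lungs that stand apart, and 0 and 1 when scaled to the median panel gene. Leaving out any lung other than on-doxycycline replicate 3 gave 0 or 1 with AAV-hSPBTLR9i and 1 or 2 with AAV-hSPB, and leaving out that lung gave 3 and 5. The list median against on-doxycycline was 0.49 and 0.52 in these repeat groups, and 0.33 off doxycycline without vector. Against off-doxycycline the repeat medians were 0.01 and 0.01, below the panel's 0.12 and 0.16, with 1 and 2 genes called higher.

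Markers of B and T cells had higher sums in most repeat lungs, and those of NK cells did not. The summed level of 6 of 7 listed B and plasma cell markers ran from 2007 to 2455 normalized counts in AAV-hSPBTLR9i repeat lungs and from 1185 to 2984 in AAV-hSPB repeat lungs, against 614.5 to 1268 off doxycycline and 498.3 to 1574 on it. After single doses it ran from 1059 to 2029 with AAV-hSPBTLR9i and from 1114 to 2155 with AAV-hSPB. The sum of 6 of 7 T cell markers ran from 1095 to 1668 and from 941.2 to 1900 in the AAV-hSPBTLR9i and AAV-hSPB repeat lungs, against 670.6 to 766.7 off and 672.5 to 1078 on doxycycline. After single doses it ran from 824.5 to 1315 with AAV-hSPBTLR9i and from 885 to 1109 with AAV-hSPB. The sum of 5 of 6 NK cell markers overlapped, with 389.4–583.2 after repeat AAV-hSPBTLR9i and 396.2–948.7 after repeat AAV-hSPB. It was 420.4–747.9 off and 310.6–552.1 on doxycycline. The sum of 3 of 7 dendritic cell markers overlapped between all groups, with 451.2–599.8 after repeat AAV-hSPBTLR9i and 382.3–623.7 after repeat AAV-hSPB, against 361.9–490.9 off and 311.4–509.9 on doxycycline. No measured marker of the B and plasma, T and dendritic cell lists was at 0 in any group, which does not mean that each was detected. Tnfrsf17 was above background in 0 of 4 and Cd8a in 1 of 4 lungs, both on and off doxycycline. The part of lymphocyte number in the level of Irf4 was not tested. Macrophage and monocyte markers, 5 of 8 measured, summed to 3338–4104 with AAV-hSPBTLR9i repeat and 3463–4904 with AAV-hSPB repeat, against 2608–4737 off and 2244–3485 on doxycycline, so the off-doxycycline range covered the whole AAV-hSPBTLR9i repeat range. Of the lung's own cells, the epithelial marker Cdh1 had 2780–3057 and 2847–3777 after repeat AAV-hSPBTLR9i and AAV-hSPB, against 3335–3909 off and 3111–3470 on doxycycline. After single doses it had 3305–3519 with AAV-hSPBTLR9i and 3400–4072 with AAV-hSPB. The AAV-hSPBTLR9i repeat range thus lay below those of both untreated and both single-dose groups. The other 6 listed epithelial markers were not analysed here. The endothelial markers Pecam1 and Vwf summed to 8488–10710 with AAV-hSPBTLR9i repeat and 4214–11590 with AAV-hSPB repeat, against 6712–10920 off and 10090–11600 on doxycycline, with all of these ranges overlapping.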

How the data were processed

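The nCounter assay counts RNA molecules by hybridized barcodes without amplification, and its panel here held 773 mouse genes and 12 reference genes. The authors deposited normalized log2 counts for each experiment, with their linear values beside them; the software and background steps are not given in the sources used here. In the deposited day 97 values the mean log2 level of 6 reference genes was equal in all lungs. The series matrix holds a linear signal per gene, deposited by the authors, which served as an alternative for day 97. Whole counts were recovered in all 33 lungs as multiples of a factor per lung, within 0.001 of a count or a relative 2e-08, and gave the depth. The day 97 background was the mean plus 2 SD of 8 control probes.

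Each table was fitted by limma 3.58.1 (R 4.3.3) with a mean per group and no filter, which left 18 (day 97) and 6 (3 h) degrees of freedom. Benjamini-Hochberg adjustment ran over 773 genes at a threshold of 0.05, and 95% intervals use limma's moderated t distribution. Scripts were tested on simulated data. Levels of different genes were not compared. The genes named were the 5 factors, the 6 genes with the highest Pearson r to Irf4 and 3 for each other factor, and in each list up to 4 called genes with the smallest p. Factors and lists were chosen with earlier results of these data known. Ifitm1, outside that rule, was named after its value was seen. Alternatives changed the scaling (median panel gene, or all 12 reference genes), took the series matrix values, dropped the lowest 25% of genes, added sex, used a trended robust prior, fitted only the compared groups or left out each lung. Further alternatives, added after the data were seen, were voom on recovered counts, leaving out both lungs that stand apart, and a covariate for the series of a second sample identifier. Python 3.11.15, pandas 2.3.3 and matplotlib 3.10.9 made the tables and plots.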

Additional observations from a re-analysis of the deposited data

How the results depend on the processing

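No paired analysis was possible because the labels give no replicate numbers shared between groups. In AAV-hSPB repeat against on-doxycycline the count of called factors was 2, and 1 with median scaling, 0 in the compared groups alone and 1 to 3 leaving out a lung. Against off-doxycycline it was 2, and 1, 0 and 1 to 4 under the same changes, and 4 without both lungs that stand apart. Against AAV-hSPB single it was 1, and 0 with all 12 reference genes, the series matrix or the compared groups alone, and 0 to 1 leaving out a lung. For AAV-hSPBTLR9i repeat the count of 0 was 1 in the compared groups alone against on-doxycycline, and 0 to 1 leaving out a lung against off-doxycycline. Of 1482 single-gene values under an alternative, 54 changed sign and 0 of those were called.

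With median scaling, Irf3 against on-doxycycline was -0.12 for AAV-hSPBTLR9i repeat, -0.15 for AAV-hSPB repeat, -0.04 for AAV-hSPBTLR9i single and -0.08 for AAV-hSPB single. Irf1 was -0.10 and Irf9 -0.07 for AAV-hSPB single, and Irf1 -0.02 for off-doxycycline. Against off-doxycycline Irf1 was -0.08 for AAV-hSPB single, and Irf7 between the single-dose vectors was 0.02. At 3 h Irf3 was -0.03 for both vectors and Irf1 -0.01 for AAV-hSPBTLR9i. With all 12 reference genes or the series matrix Irf3 was -0.05 for AAV-hSPB repeat against on-doxycycline. Without both lungs that stand apart, Irf1 was -0.01 for off-doxycycline, and between the repeat vectors Irf4 was -0.13 and Irf3 -0.08. With voom Irf7 was 0.01 for both vectors at 3 h.

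Leaving out a lung, against on-doxycycline Irf9 ran from -0.01 to 0.17 for AAV-hSPB single, and for off-doxycycline Irf4 from -0.29 to 0.08, Irf1 from -0.07 to 0.12 and Irf9 from -0.11 to 0.01. Irf1 for AAV-hSPB single against off-doxycycline ran from -0.07 to 0.13. Between the repeat vectors Irf4 ran from -0.13 to 0.55 and Irf3 from -0.08 to 0.07, and between the single-dose vectors Irf7 from -0.15 to 0.17 and Irf3 from -0.02 to 0.03. At 3 h for AAV-hSPBTLR9i against PBS Irf4 ran from -0.29 to 0.14, Irf1 from -0.06 to 0.20, Irf7 from -0.37 to 0.31 and Irf9 from -0.28 to 0.16. For AAV-hSPB against PBS Irf7 ran from -0.22 to 0.31, Irf9 from -0.01 to 0.32 and Irf3 from -0.09 to 0.12, and between the vectors Irf9 from -0.42 to 0.02 and Irf3 from -0.03 to 0.16. The cause of these changes was not tested. Scaling to all 12 reference genes and the series matrix were not run at 3 h.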
